A study of Mus musculus with 9 samples.

Results

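Oxidative phosphorylation (OXPHOS) genes of both genomes of the cell, nuclear and mitochondrial, were followed in the murine T15 lymphoma line. Genes were taken by symbol: protein-coding genes named mt-, Ndufa, Ndufb, Ndufc, Ndufs, Ndufv, Uqcr or Atp5, Sdha to Sdhd, and Cox4 to Cox8, without the Ndufaf assembly factors. This rule found 99 of 35288 listed genes, 13 encoded by the mitochondrial DNA and 86 by the nuclear DNA. The nuclear ones carry 85 symbols, because Atp5o was listed under 2 identifiers, the smaller of which is a readthrough transcript. T15 is a mouse peripheral T-cell lymphoma line that lacks Smarcb1, a core subunit of the SWI/SNF chromatin remodelling complex. RNA-seq had been performed on 9 libraries in 3 groups of 3. These were control cells, cells given 1 µM SAHA (vorinostat, a histone deacetylase inhibitor) for 72 h, and Smarcb1-RE cells, in which a lentiviral pInducer20 Smarcb1 cDNA had been selected with G418 and switched on with doxycycline (Dox) at 0.5 µg/µl for 72 h. The sources describe the control cells both as untreated and as empty-vector cells given Dox, and the labels mention a vehicle as well as a control plasmid without assigning either to the 3 control libraries. Smarcb1, transduction, selection and Dox can therefore not be told apart in any comparison with Smarcb1-RE. If the control cells carried an empty vector and were given Dox, SAHA against control would differ in these as well. An effect of SAHA can then not be told apart from theirs. Several stable clones were made, and which of them gave the libraries is not stated in the sources used here.

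OXPHOS is the chain of 5 complexes in the inner mitochondrial membrane that passes electrons from NADH and succinate to oxygen and uses the resulting proton gradient to make ATP. Complex I is NADH dehydrogenase, complex II succinate dehydrogenase, complex III the cytochrome bc1 complex, complex IV cytochrome c oxidase and complex V the ATP synthase. Complexes I, III, IV and V mix subunits of both genomes, whereas complex II is wholly nuclear. The mitochondrial genes are transcribed as long polycistronic RNAs from both strands by a dedicated polymerase and then cut into single messages, so that their levels depend on processing and decay as well as on transcription. The nuclear genes are transcribed singly, and the factors NRF1, GABPA and YY1 are known to act at many of their promoters. Dox is an antibiotic that is also known to inhibit mitochondrial ribosomes, which is given here as background only.

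The 13 mitochondrial genes lie on chromosome M of GRCm38, 12 on one strand and mt-Nd6 on the other. Some of them share bases, and a read in a stretch shared on the same strand cannot be given to either gene by its position. The longest shared stretch is that of mt-Atp8 and mt-Atp6, coding sequence in both, 43 bases at chrM:7927-7969 on the plus strand.
mt-Atp8 and mt-Atp6: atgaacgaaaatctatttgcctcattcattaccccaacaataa
The genes mt-Nd4l and mt-Nd4 share 7 bases (chrM:10167-10173), and mt-Nd5 and mt-Nd6 share 14 bases on opposite strands (chrM:13552-13565). In the textbook view, mt-Atp8 with mt-Atp6 and mt-Nd4l with mt-Nd4 each stay together on a single message.

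For the nuclear genes, promoters (RefSeq, GRCm38.p6, 250 bases before to 50 after a start) were found for 67 of the 85 symbols. The consensus motif of NRF1, whose letters are the capitals in the lines below, was present on either strand in promoters of 17 of them (25.4%). The same letters were found for 7.17% of 17492 protein-coding genes with a promoter and for 11.7% of the 9744 of these that were expressed enough to be tested. The YY1 motif AAGATGGC was found for 9 members (13.4%, against 5.39% of tested genes) and the GABPA/ETS motif CCGGAAGT for 5 (7.46%, against 9.4%). A match is a description of letters and does not show binding. Matches are shown for the 3 members with an NRF1 match that fell most in Smarcb1-RE and for the only 2 with a match that were not called lower, each as 30 bases with the motif in capitals.
Ndufa5 (chr6:24527697-24527726, minus strand): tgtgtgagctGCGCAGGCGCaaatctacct
Atp5k (chr5:108434430-108434459, minus strand): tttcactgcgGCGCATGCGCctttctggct
Sdhd (chr9:50603909-50603938, minus strand): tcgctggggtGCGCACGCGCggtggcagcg
Ndufs5 (chr4:123718265-123718294, minus strand): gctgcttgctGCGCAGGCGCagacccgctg
Ndufa6 (chr15:82354249-82354278, minus strand): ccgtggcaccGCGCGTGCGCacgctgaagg
The matches of Ndufa5, Atp5k, Sdhd and Ndufs5 began 26, 50, 79 and 98 bases before a start, and that of Ndufa6 began 24 bases after it. The NRF1 letters thus stood in promoters of members that fell and of a member that rose. The median log2 fold change in Smarcb1-RE was -0.90 for the 17 members with an NRF1 match and -0.66 for the 47 tested members without one, values that are given without a test.

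The deposited values are estimated counts per gene, with library totals from 20900477 to 24941494 counts. Smarcb1 itself had 2, 5 and 8 counts in the control libraries, 7, 13 and 3 in SAHA, against 151, 147 and 142 in Smarcb1-RE, a log2 fold change of 4.89 (SE 0.36) in Smarcb1-RE against control (edgeR adjusted p = 6.19e-08). Markers of T cells summed to 2660 to 3260 CPM (counts per 1000000 counts of the library, after scaling) in every library, with Cd3, Lck and Cd8 genes high, Cd4 at 0, Cd2 at no more than 3 counts and Thy1 at no more than 6. Markers of B cells, myeloid, erythroid and muscle cells summed to at most 7.41 CPM, and the 4 stromal and endothelial markers to 108 to 155, of which Pecam1 gave up to 154. Control replicate 1 stood apart from the other control libraries. Its counts differed from theirs by chi-square values of 13.4 and 15 per gene, against 3.64 between control replicates 2 and 3, and its mitochondrial share was the highest of the 3. Values that depend on it are given with and without it. Nothing in the labels ties the libraries to separate cultures, while the methods call them biological replicates, so the p-values measure the spread between these libraries.

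The mitochondrial and the nuclear messages moved in opposite directions in Smarcb1-RE. The 13 mitochondrial genes took 3.53, 3.02 and 3.05% of all counts in the control libraries, 3.37, 3.76 and 3.59% in SAHA, compared with 5.08, 4.79 and 4.87% in Smarcb1-RE. The 86 nuclear genes took 0.963, 0.892 and 0.874% in control, 0.891, 0.898 and 0.896% in SAHA, against 0.668, 0.670 and 0.669% in Smarcb1-RE. In Smarcb1-RE all 3 libraries lay above every control and SAHA library for the mitochondrial share and below all of them for the nuclear share, whereas control and SAHA overlapped in both. The ratio of mitochondrial to nuclear counts was 3.52 ± 0.141 (SD, n = 3) in control, 3.99 ± 0.201 in SAHA and 7.34 ± 0.228 in Smarcb1-RE. The ratios of the 3 groups did not overlap, with a highest control value of 3.67 and a lowest SAHA value of 3.79. An exact permutation test of 3 against 3 libraries can go no lower than p = 0.1, and none was run on these sums. They are shares of a library, so that a change in these messages and a change in the rest of the RNA cannot be told apart. The amounts of RNA per cell are not known.

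**Figure D1:**
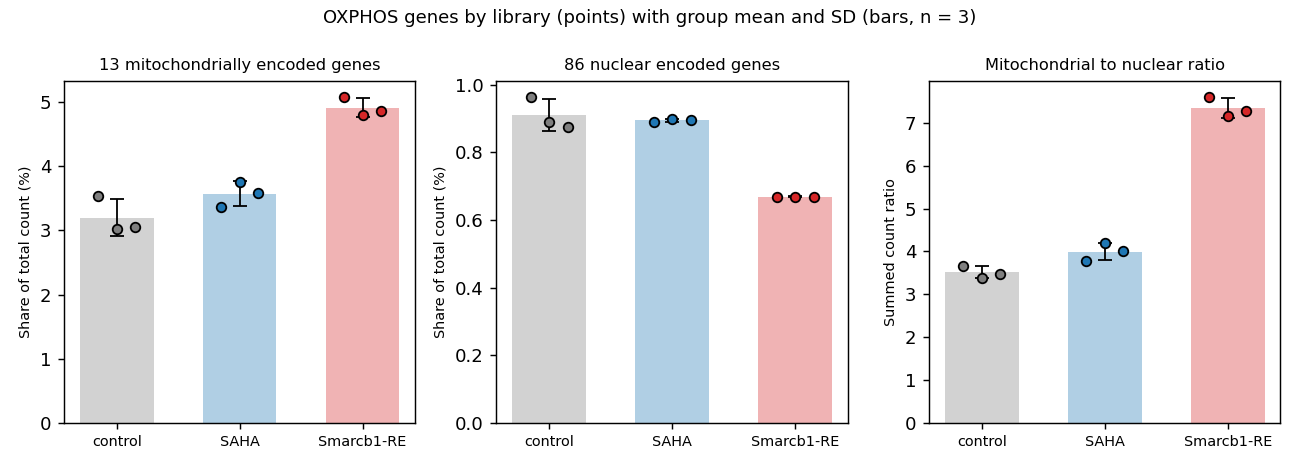
Summed counts of the 13 mitochondrially encoded and the 86 nuclear encoded OXPHOS genes as a percent of each library, and the ratio of the sums, in control, SAHA and Smarcb1-RE. Points are libraries, bars group means and error bars SD (n = 3), and the ratio is 7.34 in Smarcb1-RE against 3.52 in control and 3.99 in SAHA.

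Each gene was then tested in a fit of all 13697 genes that passed the filter on low counts (edgeR quasi-likelihood test, Benjamini-Hochberg adjusted p under 0.05). All 13 mitochondrial and 81 of 86 nuclear members passed the filter. The 5 that did not are tissue-restricted isoforms of complex IV. Cox4i2, Cox6b2, Cox8b and Cox8c were listed at 0 in all 9 libraries, and Cox7b2 had 1 count in control replicate 1 and 1 in Smarcb1-RE replicate 3. In Smarcb1-RE against control, 39.2% of all tested genes were higher and 38.6% lower. Of the mitochondrial members 10 of 13 rose, 1 fell and 2 were not called (76.9% higher). Of the nuclear members 69 of 81 fell, 7 rose and 5 were not called (85.2% lower). In the same comparison all 3 Smarcb1-RE libraries lay above all 3 control libraries for 10 mitochondrial and 6 nuclear members (40.4% of all genes), and below them for 1 mitochondrial and 69 nuclear members (39.1%). Called increases of at least 0.5 on the log2 scale were seen for 7 mitochondrial and 4 nuclear members (27.6% of all genes), and decreases of that size for 0 and 50 (21.7%). The median log2 fold change was 0.52 for the mitochondrial and -0.66 for the nuclear members, beside 0.01 for all genes, so that the medians lay 1.18 apart. With library totals in place of TMM factors the median of all genes became 0.17, and those of the members 0.68 and -0.50, and the share of higher genes among all called genes went from 50.4 to 61%.

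Among the mitochondrial genes of complex I, the largest increases in Smarcb1-RE were those of the neighbours mt-Nd4l and mt-Nd4, subunits of the proton-pumping membrane arm. mt-Nd4l stood at 202, 212 and 207 CPM in control, 245, 311 and 258 in SAHA, compared with 518, 491 and 485 in Smarcb1-RE. mt-Nd4 stood at 1755, 1450 and 1512 CPM in control, 1807, 2114 and 1881 in SAHA, against 3234, 3060 and 2995 in Smarcb1-RE. Both were ordered control, SAHA, Smarcb1-RE with no overlap. The log2 fold changes in Smarcb1-RE against control were 1.27 (SE 0.07, adjusted p = 5.76e-09) for mt-Nd4l and 0.98 (SE 0.07, adjusted p = 6.69e-08) for mt-Nd4. In the same arm, mt-Nd2, mt-Nd5 and mt-Nd3 rose by 0.57, 0.49 and 0.48. The gene mt-Nd1, the first protein gene behind the ribosomal RNA genes, was the only mitochondrial member called lower. It stood at 2872, 2409 and 2260 CPM in control, 2544, 2872 and 2737 in SAHA, compared with 2228, 2166 and 2176 in Smarcb1-RE, and its log2 fold change was -0.20 (SE 0.07, edgeR adjusted p = 0.0263). This call was lost without control replicate 1 (-0.10, adjusted p = 0.0584), without Smarcb1-RE replicate 2 (adjusted p = 0.0657) or 3 (adjusted p = 0.0658), with 10 counts required in every library (-0.14, adjusted p = 0.0871) and with library totals (-0.04, adjusted p = 0.619). mt-Nd6, the only member read from the other strand, stood at 59.7, 32.7 and 40.1 CPM in control and 53.6, 56.5 and 53.3 in Smarcb1-RE. Its groups overlapped through control replicate 1, and its log2 fold change of 0.30 (edgeR adjusted p = 0.0868) became 0.57 without that library (adjusted p = 1.3e-05). Whether strand was used in counting is not given in the sources used here.

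In the other complexes, mt-Cytb, the heme-bearing subunit of complex III, rose by 0.61 (SE 0.07), from 4175, 3329 and 3498 CPM to 5729, 5519 and 5503. The 3 mitochondrial subunits of complex IV form its catalytic core and did not move alike. mt-Co2 rose by 0.63 (SE 0.11, edgeR adjusted p = 0.000142), from 5080, 3692 and 3550 CPM in control to 6492, 6190 and 6400. mt-Co1 rose by 0.38 (SE 0.06), from 9155, 7742 and 8392 CPM to 11460, 10610 and 10860. mt-Co3 had 4637, 3908 and 3854 CPM in control and 4652, 4280 and 4323 in Smarcb1-RE, groups that overlapped, with a log2 fold change of 0.10 (edgeR adjusted p = 0.194) that was called without control replicate 1 (0.18, adjusted p = 0.00113). Both mitochondrial subunits of the ATP synthase rose. mt-Atp8 went from 536, 581 and 523 CPM to 946, 898 and 939 (0.76, SE 0.06) and mt-Atp6, which overlaps it by the 43 bases printed above, from 5825, 5449 and 5017 to 8241, 7428 and 7771 (0.52, SE 0.07). Per kilobase, 11 of the 13 mitochondrial genes stood above the most abundant nuclear member, Atp5b. Their mean over the 9 libraries ran from 90.4 CPM per kb for mt-Nd6 to 8980 for mt-Atp6, against 515 for Atp5b. mt-Nd3, at 332 CPM per kb, was also below Atp5b. However, a near-identical nuclear copy of it, Gm28438, was given more counts than mt-Nd3 itself (346 against 106 CPM in control). The rank of mt-Nd3 therefore depends on how counts were divided between them.

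**Figure D2:**
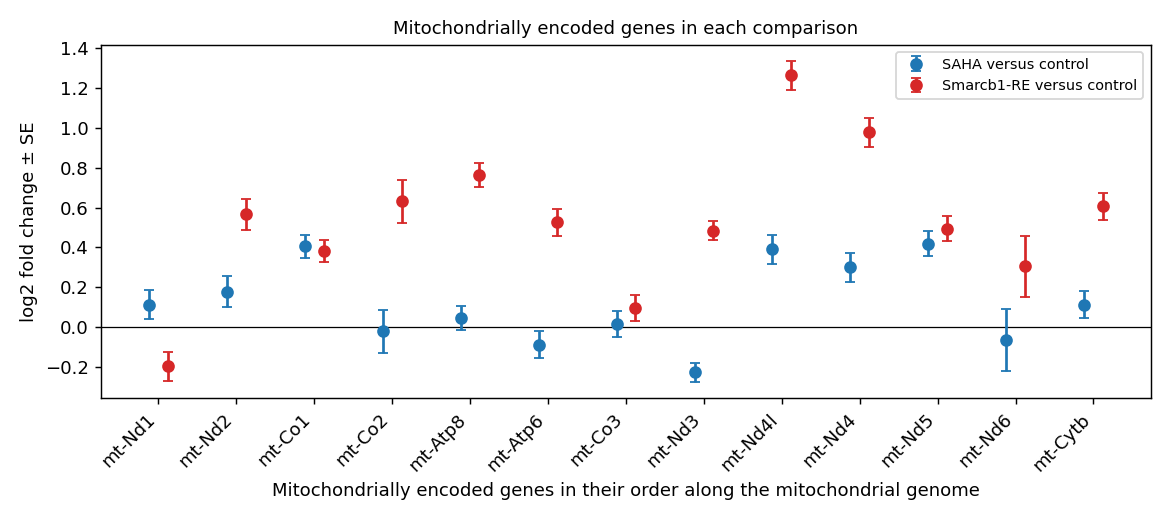
Log2 fold change with SE of the 13 mitochondrially encoded genes in SAHA against control and Smarcb1-RE against control, in gene order along the mitochondrial genome. In Smarcb1-RE the values run from -0.20 for mt-Nd1 to 1.27 for mt-Nd4l, and in SAHA from -0.23 for mt-Nd3 to 0.42 for mt-Nd5.

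In SAHA against control, 32.6% of all tested genes were higher and 34.3% lower. Of the mitochondrial members 4 of 13 rose (30.8%), 1 fell (7.69%) and 8 were not called, with a median log2 fold change of 0.11. The SAHA libraries lay above all control libraries for 4 mitochondrial and 18 nuclear members (33.8% of all genes), and below them for 1 and 38 (34.9%). Changes of at least 0.5 were called for no mitochondrial member, and for 7 nuclear members upwards (19.6% of all genes) and 11 downwards (13%). The mitochondrial members that rose were mt-Nd5 (0.42), mt-Co1 (0.40), mt-Nd4l (0.39) and mt-Nd4 (0.30), and mt-Nd3 fell (-0.23, SE 0.05, edgeR adjusted p = 0.00106). mt-Co1, the subunit that holds the oxygen-binding centre, stood at 10690, 11370 and 11420 CPM in SAHA, above every control library and among the Smarcb1-RE libraries. mt-Nd5 stood at 993, 984 and 930 CPM in control, 1176, 1425 and 1284 in SAHA, against 1375, 1307 and 1412 in Smarcb1-RE. mt-Nd3 went from 103, 112 and 105 CPM in control to 87.8, 95.9 and 89.0 in SAHA, compared with 150, 152 and 144 in Smarcb1-RE, the lowest group being SAHA. The count of 4 higher depended on the fit, and most on control replicate 1. Without that library 10 mitochondrial members rose in SAHA, beside 4645 of 14035 genes tested, and the mitochondrial median was 0.21. There mt-Co2 was at 0.16 (edgeR adjusted p = 0.0128) and mt-Nd6 at 0.21 (edgeR adjusted p = 0.0274), in place of -0.02 and -0.07. mt-Nd2 (0.18, edgeR adjusted p = 0.0629) was called with DESeq2 (adjusted p = 0.0212). With edgeR it was called with 10 counts required in every library (adjusted p = 0.0241) and without SAHA replicate 1 (adjusted p = 0.0317).

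Smarcb1-RE against SAHA does not use the control level, although the control libraries took part in the shared filter, scaling and estimate of the spread. Here 37.7% of all genes were higher and 36.8% lower, while 9 of 13 mitochondrial members were higher, 1 was lower (mt-Nd1, -0.31, SE 0.07) and 3 were not called (mt-Co1, mt-Co3 and mt-Nd5). Of the nuclear members 60 of 81 were lower, 7 higher and 14 not called. The medians were 0.50 and -0.54, beside 0.02 for all genes. Smarcb1-RE libraries lay above all SAHA libraries for 9 mitochondrial and 8 nuclear members (40.7% of all genes), and below them for 1 and 63 (39.2%). Differences of at least 0.5 were called upwards for 6 mitochondrial and 5 nuclear members (24.1% of all genes) and downwards for 0 and 43 (21.2%). The call of mt-Nd6 (0.37, edgeR adjusted p = 0.0447) was lost with DESeq2 (adjusted p = 0.125) and without control replicate 3 (edgeR adjusted p = 0.0514). It was also lost without any 1 of the 6 libraries compared (edgeR adjusted p from 0.0768 to 0.136). The opposite directions of the compartments in Smarcb1-RE were thus also present against SAHA, and were kept in separate fits per pair, which leave out the control libraries.

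In SAHA against control the nuclear members moved both ways. Of 81, 38 fell (46.9%, beside 34.3% of all genes), 19 rose (23.5%, beside 32.6%) and 24 were not called, with a median of -0.13. In complex I, 22 of 36 nuclear subunits were lower (61.1%) and 4 higher (11.1%). In complex IV, 6 of 15 were higher (40%) and 2 lower (13.3%), and of the higher ones Cox6b1 and Cox7b had groups that overlapped. Of the lower ones, Cox6a2 had few counts (13, 10 and 6 in control, 0, 1 and 1 in SAHA). It is also among the 11 nuclear members with a called decrease of at least 0.5 in SAHA. Complexes III (3 higher and 3 lower of 8) and V (5 higher and 8 lower of 18) held both. Without control replicate 1 the nuclear median in SAHA was -0.04, with 27 members higher and 36 lower. Of all 14035 genes tested in that fit, 4645 were higher and 4798 lower, so the share of nuclear members higher was then near that of all genes. The comparisons of SAHA and of Smarcb1-RE with control share the control libraries, and their values are therefore set side by side below and not correlated.

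**Figure D3:**
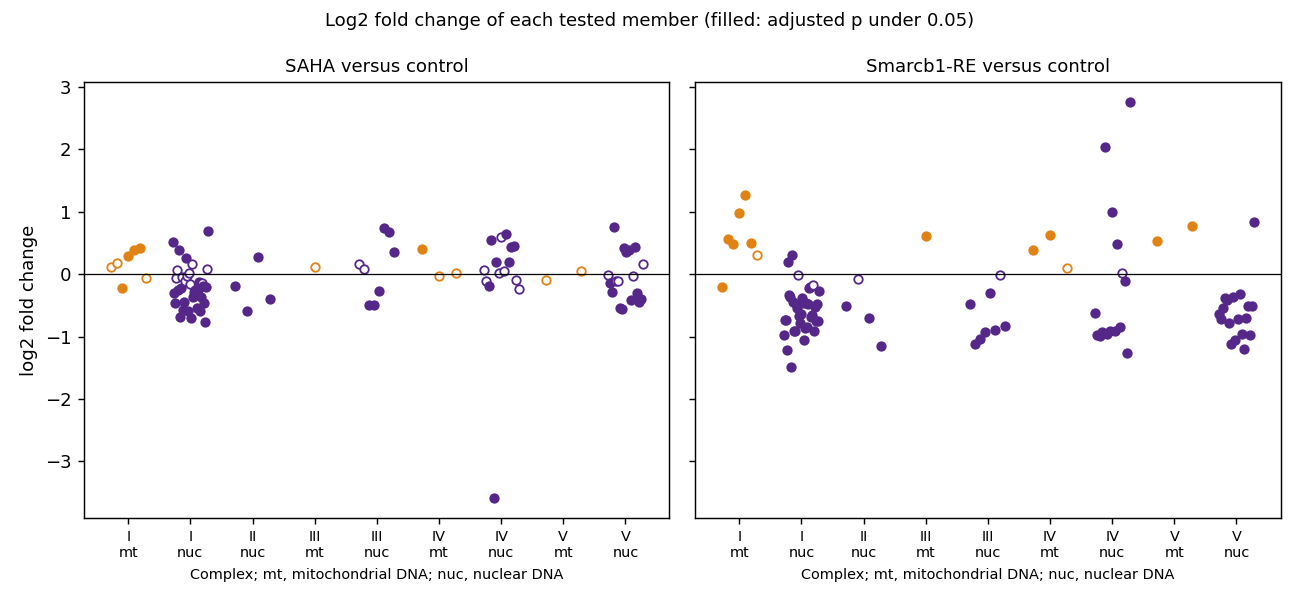
Log2 fold change of the 94 tested members by complex and genome of origin in SAHA against control (left) and Smarcb1-RE against control (right). Filled points passed the test at an adjusted p of 0.05, and in Smarcb1-RE the nuclear members lie mostly below 0 in every complex while the mitochondrial ones lie mostly above it.

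The nuclear subunits of complex I fell in Smarcb1-RE in 32 of 36 cases (88.9%, beside 38.6% of all genes), with 2 higher and 2 not called and a median of -0.59. Ndufa5, a subunit of the matrix arm, fell most, from 39.5, 32.8 and 30.3 CPM in control to 12.2, 11.6 and 13.0. Its SAHA libraries, at 23.7, 20.5 and 19.6 CPM, lay between the groups. The log2 fold changes were -1.48 (SE 0.10, edgeR adjusted p = 3.72e-08) in Smarcb1-RE and -0.69 (SE 0.10, adjusted p = 4.31e-05) in SAHA. Ndufa12, an accessory subunit, fell in Smarcb1-RE from 17.7, 16.2 and 14.0 CPM to 6.40, 7.13 and 7.03 (-1.22, SE 0.11), whereas its SAHA libraries overlapped control (14.2, 14.9 and 17.0 CPM). Ndufs8, an iron-sulfur subunit of the electron path, went from 68.2, 59.0 and 56.3 CPM in control to 35.6, 33.7 and 38.6 in SAHA, against 36.4, 36.0 and 36.1 in Smarcb1-RE. Its log2 fold changes were nearly equal at -0.77 and -0.76, and the difference of 0.01 (SE 0.07) between the treatments was not called. Ndufb5 was the reverse of most members in that it was lower in SAHA (44.0, 42.3 and 39.6 CPM) than in Smarcb1-RE (52.0, 53.4 and 51.1), both below control (76.5, 66.9 and 61.5).

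Some complex I genes moved in opposite directions under the treatments. Ndufv3, an accessory subunit at the NADH-oxidizing tip, rose in SAHA from 50.1, 46.1 and 43.6 CPM to 71.3, 78.2 and 75.8 (0.69, SE 0.05) and stood at 39.6, 37.9 and 38.8 in Smarcb1-RE (-0.27, SE 0.06). Ndufa1 stood at 47.7, 38.4 and 37.1 CPM in control, 57.5, 62.1 and 56.5 in SAHA, compared with 20.3, 21.7 and 20.6 in Smarcb1-RE, and the difference of -1.49 (SE 0.09) between the treatments was the largest decrease of complex I. The members that rose in Smarcb1-RE were Ndufa6 (0.30, SE 0.07), at 57.1, 49.5 and 48.5 CPM in control and 63.1, 63.0 and 65.3 in Smarcb1-RE, and Ndufa13 (0.20, SE 0.07), whose groups overlapped through control replicate 1. Per kilobase the most abundant nuclear complex I message was Ndufb9 (147 CPM per kb on average over the 9 libraries), which fell in both comparisons (-0.25 in SAHA and -0.47 in Smarcb1-RE).

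Complex II, the only one with no mitochondrial gene, did not move as a unit. Sdhd, a membrane anchor, fell stepwise from 130, 121 and 118 CPM in control to 94.9, 93.0 and 91.6 in SAHA, against 54.3, 57.9 and 53.6 in Smarcb1-RE (-0.40, SE 0.05, and -1.15, SE 0.05). Sdhc, the other anchor, rose in SAHA and fell in Smarcb1-RE, with 146, 135 and 130 CPM in control, 157, 170 and 169 in SAHA, compared with 83.5, 85.7 and 82.0 in Smarcb1-RE. Sdha, the flavoprotein and the most abundant per kilobase (91.8 CPM per kb), fell from 296, 322 and 310 CPM to 275, 268 and 272 in SAHA, against 219, 224 and 212 in Smarcb1-RE. Sdhb, the iron-sulfur subunit, was called lower in SAHA and not in Smarcb1-RE, with 117, 102 and 97.4 CPM in control, 67.8, 72.0 and 69.6 in SAHA, compared with 97.7, 99.3 and 101 in Smarcb1-RE. Its difference between the treatments was itself called (0.51, SE 0.06, edgeR adjusted p = 5.98e-06).

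In complex III, 7 of 8 nuclear subunits fell in Smarcb1-RE (87.5%, beside 38.6% of all genes), with a median of -0.86. Uqcrfs1, the Rieske iron-sulfur protein, had the largest difference between the treatments in this complex. It had 131, 114 and 114 CPM in control, 193, 197 and 207 in SAHA, against 66.6, 61.7 and 64.2 in Smarcb1-RE, which gives log2 fold changes of 0.73 (SE 0.06) in SAHA, -0.90 (SE 0.06) in Smarcb1-RE and -1.63 (SE 0.06, edgeR adjusted p = 1.17e-10) between them. Uqcr11, a small accessory subunit, stayed near control in SAHA (55.3, 53.6 and 54.4 CPM against 58.5, 47.9 and 47.7) and fell to 23.64, 24.97 and 22.16 in Smarcb1-RE (-1.12, SE 0.08). Uqcrh, the hinge protein and the most abundant of the complex per kilobase (218 CPM per kb), rose in SAHA to 155, 164 and 159 CPM from 112, 93.5 and 93.5 in control. In Smarcb1-RE it stood at 103, 94.8 and 98.8, among the control libraries.

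Complex IV holds most of the isoform families, in which a widely expressed gene has a relative used in muscle, lung or testis. In Smarcb1-RE 10 of 15 tested nuclear members fell (66.7%, beside 38.6% of all genes), 4 rose (26.7%, beside 39.2%) and 1 was not called. In some families the isoforms moved apart. Cox4i1, the widely expressed form of subunit 4 and the most abundant of the complex per kilobase (264 CPM per kb), fell from 251, 212 and 209 CPM to 153, 143 and 143 (-0.61, SE 0.06). Cox6a1 fell from 156, 128 and 128 CPM to 70.4, 72.7 and 74.0 (-0.93, SE 0.08), whereas its SAHA libraries were at 187, 212 and 206 (0.55, SE 0.07). Its muscle relative Cox6a2 had 13, 10 and 6 counts in control, 0, 1 and 1 in SAHA, compared with 38, 34 and 44 in Smarcb1-RE, no more than 1.90 CPM, with a log2 fold change of 2.03 (SE 0.32) in Smarcb1-RE. At so few counts no fold is given for SAHA. Cox7a2 fell from 89.9, 79.4 and 73.9 CPM to 44.41, 40.55 and 44.97 (-0.90, SE 0.07), and its muscle relative Cox7a1 went from 14, 11 and 9 counts to 24, 17 and 25 (0.99, SE 0.30, edgeR adjusted p = 0.00927). The muscle markers, 4 genes that include the heart and skeletal myosins, summed to at most 0.683 CPM in any library.

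The remaining widely expressed forms were lower in Smarcb1-RE, apart from Cox7a2l and Cox7c. Cox6b1 fell from 130, 107 and 106 CPM to 59.7, 57.9 and 58.9 (-0.95, SE 0.07) and Cox7b from 103, 82.9 and 78.7 to 49.9, 47.4 and 49.8 (-0.85, SE 0.08). In SAHA both were called slightly higher (0.19 and 0.20) with groups that overlapped. Cox8a, the only form of subunit 8 above 0, was lower by 0.11 (SE 0.04) in Smarcb1-RE, at 97.6, 97.3 and 97.0 CPM against 109, 105 and 102, and higher by 0.45 (SE 0.04) in SAHA. The decrease turned to 0.046 with library totals. Cox7a2l, known for joining complexes III and IV in supercomplexes, rose in both comparisons, from 153, 140 and 135 CPM in control to 212, 226 and 232 in SAHA (0.65, SE 0.05) and 200, 197 and 199 in Smarcb1-RE (0.48, SE 0.05). Ndufa4, first described as a complex I protein and now counted to complex IV, fell in Smarcb1-RE from 147, 127 and 125 CPM to 54.5, 56.0 and 56.3 (-1.26, SE 0.06), while its SAHA libraries (126, 126 and 121) overlapped control. Its relative Ndufa4l2, known as a target of hypoxia signalling, had 8, 9 and 5 counts in control, 6, 5 and 7 in SAHA, against 40, 53 and 53 in Smarcb1-RE (2.76, SE 0.29, edgeR adjusted p = 1.84e-06).

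In complex V, 17 of 18 nuclear members fell in Smarcb1-RE (94.4%, beside 38.6% of all genes), with a median of -0.67. Atp5b, the catalytic beta subunit and the most abundant nuclear member per kilobase, stood at 1186, 1206 and 1137 CPM in control, 1083, 1051 and 1061 in SAHA, compared with 719, 718 and 711 in Smarcb1-RE (-0.14, SE 0.04, and -0.72, SE 0.04). Subunit c, which forms the rotating ring, comes from 3 genes whose mature proteins are the same. All 3 fell in Smarcb1-RE, Atp5g1 by 1.11, Atp5g3 by 1.05 and Atp5g2 by 0.36 on the log2 scale. In SAHA they parted, as Atp5g3 rose from 230, 209 and 209 CPM to 300, 290 and 281, Atp5g2 fell from 112, 119 and 118 to 81.2, 68.4 and 86.4 and Atp5g1 fell from 89.3, 70.2 and 71.7 to 55.4, 53.5 and 49.8. Atp5d, the delta subunit of the central stalk, rose in SAHA from 148, 132 and 136 CPM to 227, 233 and 245 (0.76, SE 0.05) and fell to 109, 102 and 110 in Smarcb1-RE (-0.37, SE 0.05). Atp5k, the small subunit e, fell in Smarcb1-RE from 58.5, 49.8 and 48.4 CPM to 22.5, 20.6 and 24.8 (-1.21, SE 0.08). The only member named Atp5 that rose in Smarcb1-RE was Atp5s, from 8.97, 7.10 and 7.61 CPM to 14.2, 14.9 and 13.2 (0.84, SE 0.10). Atp5s encodes coupling factor B and is not a structural subunit of the enzyme.

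**Figure D4:**
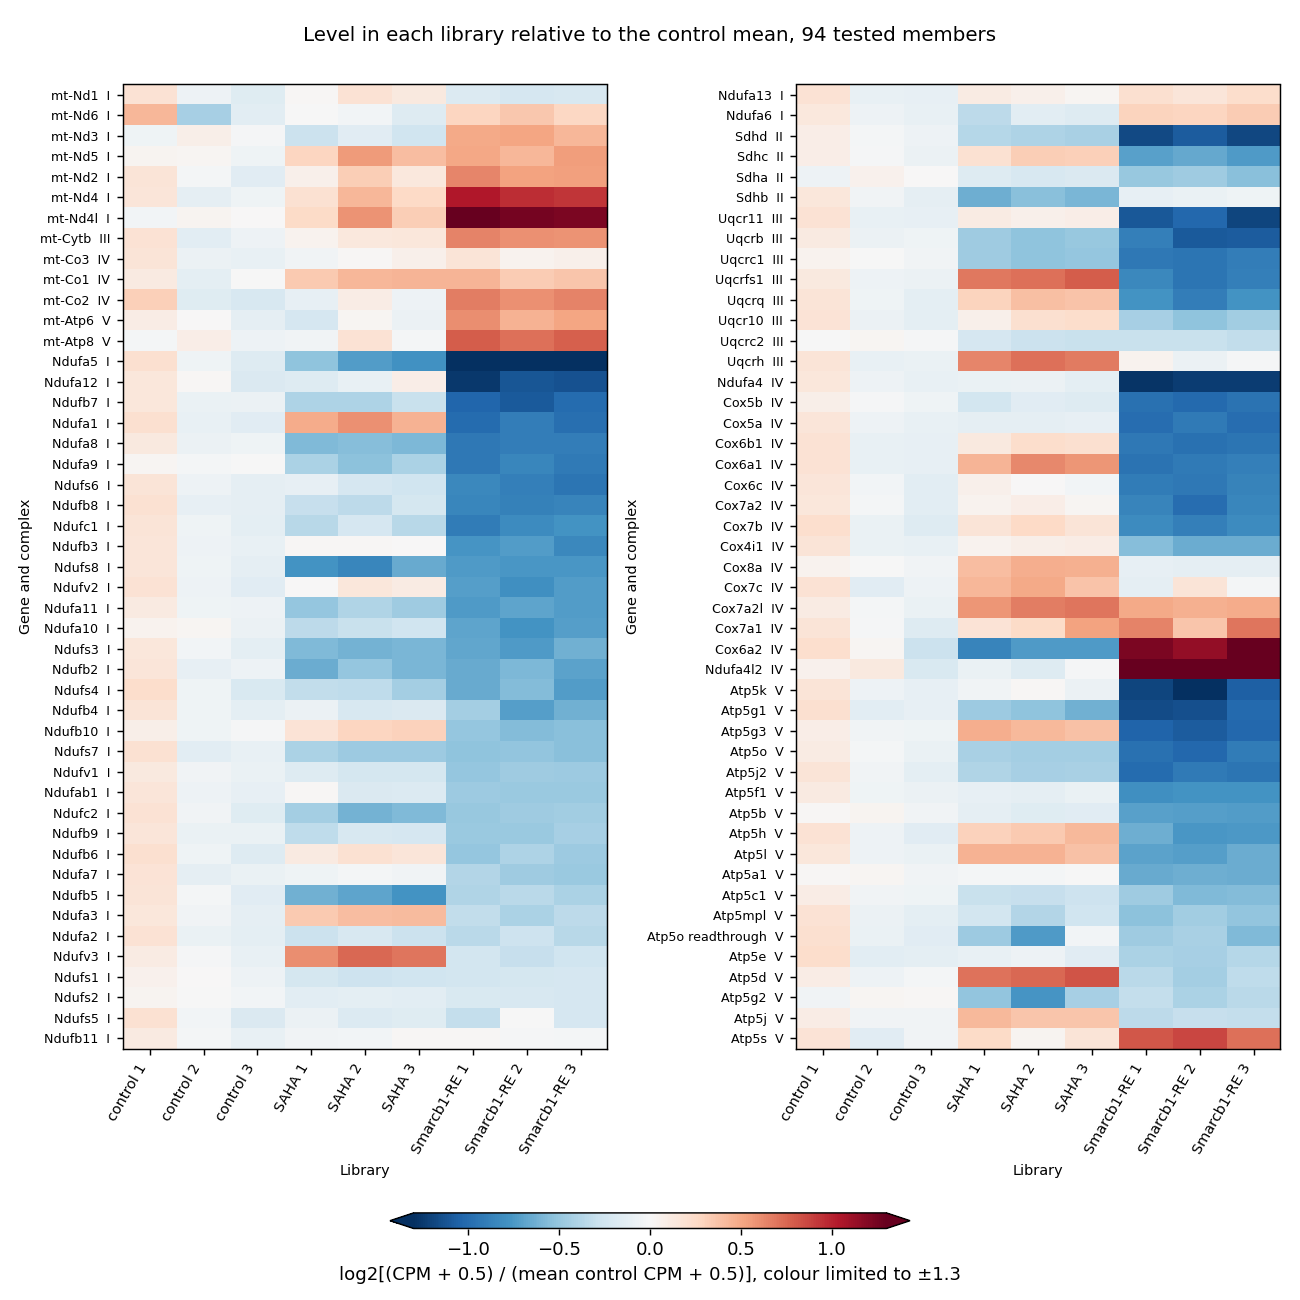
Level of the 94 tested members in each of the 9 libraries relative to the control mean, as log2 of CPM with 0.5 added, ordered by genome of origin, complex and log2 fold change in Smarcb1-RE. Red is higher and blue lower than control, with colour limited to 1.3 either way, and the blue of the nuclear members in the 3 Smarcb1-RE libraries stands beside the red of the mitochondrial ones.

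The nuclear members not called in Smarcb1-RE were Ndufs5, Ndufb11, Sdhb, Uqcrh and Cox7c, named here after their values were seen. Sdhb, Uqcrh and Ndufs5 lie on chromosome 4, as does Ndufb6, which fell by 0.46. In Smarcb1-RE the genes of chromosome 4 stood apart as a whole: the median log2 fold change of 698 of them was 0.28, against -0.21 to -0.01 for the other 18 autosomes, and the 3 libraries gave 0.28, 0.29 and 0.28. The median of the 4 members on chromosome 4 was -0.13 and that of the 77 tested members elsewhere -0.68. The part of the chromosome-wide difference in these genes was not tested. In SAHA chromosome 4 had a median of -0.09, within the range of the other autosomes. Away from chromosome 4, 68 of 77 nuclear members fell in Smarcb1-RE (88.3%, beside 38.6% of all genes) and 7 rose (9.09%, beside 39.2%).

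Near-identical copies in the genome limit single values. By alignment of transcripts at 95% identity or more, 9 mitochondrial and 25 nuclear members have a listed copy, mostly pseudogenes. mt-Atp6, mt-Co2, mt-Co3, mt-Nd4 and mt-Nd4l each match a chromosome 1 pseudogene at 100% over 294 to 876 bases, so that counts may have been divided between them. The same holds for mt-Nd3, which matches Gm28438 on chromosome 1 at 99.71% over 345 bases. In control that copy averaged 346 CPM, against 106 for mt-Nd3. When the counts of copies were added to those of their members, the mitochondrial to nuclear ratio ran from 3.40 to 3.72 in control, 3.87 to 4.27 in SAHA and 7.33 to 7.73 in Smarcb1-RE, and no mitochondrial member changed direction. Ndufs5 was then called lower in Smarcb1-RE (-0.23, adjusted p = 0.00788), and mt-Nd3 stayed lower in SAHA (-0.25, edgeR adjusted p = 0.00895).

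Genes that build and run the same system were examined by lists chosen by function, whose counts stand beside 39.2% of all genes higher and 38.6% lower in Smarcb1-RE, and 32.6% and 34.3% in SAHA. Of 78 mitochondrial ribosomal proteins, which translate the 13 mitochondrial messages, 70 were lower and 2 higher in Smarcb1-RE (median -0.73) and 53 lower and 7 higher in SAHA (median -0.38). Mrps7 was the largest decrease in Smarcb1-RE (-1.56, SE 0.06). Of 39 genes of mitochondrial transcription, RNA processing and translation, 28 were lower and 3 higher in Smarcb1-RE, and 20 lower and 4 higher in SAHA. Tufm, the mitochondrial elongation factor, averaged 184 CPM in control, 335 in SAHA and 60.5 in Smarcb1-RE, with log2 fold changes of 0.86 (SE 0.05) and -1.61 (SE 0.05). Rexo2, an exonuclease that degrades short RNAs, was the largest increase of the list in Smarcb1-RE (0.56, SE 0.05). Twnk, the mitochondrial DNA helicase, was the largest decrease in SAHA (-0.85, SE 0.06).

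Among 48 assembly factors 27 were lower (56.2%) and 9 higher (18.8%) in Smarcb1-RE, and 25 lower (52.1%) and 9 higher in SAHA. The copper chaperones of complex IV parted in SAHA, where Sco1 rose from a mean of 24.5 to 56.4 CPM (1.20, SE 0.06) and Sco2 fell from 28.2 to 8.69 (-1.70, SE 0.07). Of the 17 listed subunits and electron carriers outside the rule, 11 were lower and 2 higher in Smarcb1-RE, with cytochrome c (Cycs) lowest at -1.34 (SE 0.08). In SAHA 6 were lower and 4 higher, and the share lower (35.3%) was near that of all genes (34.3%). The tricarboxylic acid cycle, which supplies the chain with electrons, had 16 of 19 genes lower and 2 higher in Smarcb1-RE, with the largest decrease in Idh3a (-1.13, SE 0.04), and 10 lower and 4 higher in SAHA. Of 17 mitochondrial chaperones, proteases and stress genes, 12 were lower in each comparison, with 4 higher in Smarcb1-RE and 3 in SAHA. Hspd1, the matrix chaperonin, averaged 1330 CPM in control, 977 in SAHA and 455 in Smarcb1-RE (-1.55, SE 0.05), and Ddit3, a stress-induced transcription factor, 9.04, 4.38 and 37.4 (2.05, SE 0.08, in Smarcb1-RE). Of 17 tested regulators of nuclear OXPHOS genes, 6 were higher and 9 lower in Smarcb1-RE, and 6 higher and 6 lower in SAHA. The share higher was 35.3% in both and the share lower in SAHA 35.3%, near those of all genes. The related coactivators Ppargc1b and Pprc1 moved apart in Smarcb1-RE (1.46, SE 0.12, from a mean of 2.94 CPM, and -0.75, SE 0.06, from 175 CPM), and Hif1a was the largest increase in SAHA (1.27, SE 0.06).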

How the data were processed

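RNA-seq of T15 cells was analysed in 9 libraries of 3 groups, which were assigned from the sample labels. The kit kept strand, and reads were single-end. Whether poly(A) selection or ribosomal RNA depletion was used is not stated in the sources used here. The authors deposited 1 table of estimated counts per Ensembl mouse gene, not normalized and not pooled. The submitters' processing notes name Salmon 0.14.1, DESeq2 1.22.2, FastQC 0.11.8, MultiQC 1.7 and the build GRCm38, without roles. Of the values above 0, 52.4% were not whole, and all were rounded.

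Symbols and positions came from GENCODE M21 (GRCm38), which held 99.5% of the listed identifiers. The 2 ribosomal and 22 transfer RNA genes of the mitochondrial DNA were not among the listed genes and could not be analysed. The shares of all counts therefore leave them out. Members and gene lists were chosen with earlier results of these data known. Counts were tested with edgeR 4.0.16 in R 4.3.3 (filterByExpr with a minimum count of 10, TMM factors, glmQLFit and glmQLFTest, 1 fit of 3 group means, no replicate block), with Benjamini-Hochberg adjustment over all 13697 tested genes and an adjusted p under 0.05. SE was taken as the size of the log2 fold change over the root of its F statistic. CPM values are counts per 1000000 after TMM scaling, and levels between genes are compared per kb of the principal transcript. A count of 3 corresponds to 0.123 to 0.133 CPM. Library totals were 20900477 to 24941494 counts, and depth covers counting error alone.

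Named genes were all 13 mitochondrial genes, the Sdh genes, the Cox4i, Cox6a, Cox6b, Cox7a, Cox7b, Cox8, Ndufa4 and Atp5g families, the 3 largest increases and decreases per comparison with no overlap between groups and an average log2 CPM of at least 1, the most abundant nuclear gene per kb of each complex, and the largest called change of each other list. Members that were not called in Smarcb1-RE, Ndufa13 and Ndufb6 were named after their values were seen. The test was tried on simulated data of 13447 genes for the SAHA comparison and 13442 for the Smarcb1-RE comparison. In them 90 and 108 genes were given an absolute log2 fold change of 0.5, and 108 and 89 genes a change of 1. Of these, 77.8 and 80.6% were called at 0.5, and 94.4 and 89.9% at 1. Of all calls, 3.91 and 6.18% fell on unchanged genes. Far fewer genes changed there than were called in the data, and all shared 1 spread, so these rates need not hold for the data. Alternatives were DESeq2 1.42.0, other scaling and filters, separate fits, a replicate block, each library left out and, chosen after seeing the data, pooled near-identical copies.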

Additional observations from a re-analysis of the deposited data

How the results depend on the processing

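Under the alternatives run, the medians of the mitochondrial and the nuclear members kept opposite signs in all 3 comparisons, and the difference of the medians stayed within its replicate spread. With library totals in place of TMM factors, the median log2 fold change in Smarcb1-RE against control was -0.50 for nuclear and 0.68 for mitochondrial members, with 0 mitochondrial members lower. Against SAHA it was -0.38 and 0.65, with 14 nuclear members higher and 0 mitochondrial members lower, and the median of all genes moved to 0.17 and 0.18. The share of higher genes among the called ones then went from 50.4 to 61% and from 50.6 to 62.1%. Under that scaling Cox8a (0.046), Uqcrh (0.15) and Lonp1 (0.12) turned to higher values in Smarcb1-RE against control, and mt-Co1 (0.13) against SAHA. With 10 counts required in every library, 4 nuclear members were higher and 0 mitochondrial members lower in Smarcb1-RE. With an absolute log2 fold change of at least 0.5, SAHA had 7 nuclear members higher, 11 lower, and 0 mitochondrial members either way, Smarcb1-RE had 4 nuclear members higher and 0 mitochondrial lower, and Smarcb1-RE against SAHA 0 mitochondrial lower. At an adjusted p under 0.01, 0 mitochondrial members were lower in Smarcb1-RE.

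Leaving out each library in turn gave, for SAHA against control, 4 to 10 mitochondrial members higher, a mitochondrial median of 0.041 to 0.213 and a nuclear median of -0.165 to -0.041. The values 10, 0.213 and -0.041 came without control replicate 1, when mt-Co2 (0.16) and mt-Nd6 (0.21) also turned to higher values, against -0.12 and -0.24 at their lowest. The cause was not tested. In Smarcb1-RE against control the mitochondrial members called lower ran from 0 to 1 and those called higher from 10 to 12. With the replicate number as a block, 11 mitochondrial members were higher and 69 nuclear members lower in Smarcb1-RE, and no count of members moved by over 1.5 times. Same-numbered libraries of different groups were uncorrelated in their deviations from the group means (mean r = -0.0034, from -0.0717 to 0.0366). Libraries with different numbers gave a mean r of 0.0017. Whether same-numbered libraries share a culture or a batch was not tested.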

Other observations

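Nuclear pseudogenes that carry stretches of mitochondrial DNA sequence were followed as a list of 9, of which 6 passed the filter on low counts. Of these, 5 were higher and 0 lower in Smarcb1-RE against control (1 was not called), beside 39.2% of all genes higher. In SAHA 3 were higher, beside 32.6% of all genes, and 1 was lower, Gm28438, whose libraries overlapped those of control. Gm10925, a chromosome 1 copy of mt-Atp6 with 100% identity over 678 bases, averaged 128 CPM in control, 258 in SAHA and 515 in Smarcb1-RE, with log2 fold changes of 1.01 (SE 0.26) and 2.004 (SE 0.26). mt-Atp6 itself had -0.09 and 0.52. Gm28438, a copy of mt-Nd3, averaged 346 CPM in control, 290 in SAHA and 483 in Smarcb1-RE and mt-Nd3 averaged 106, 90.9 and 149 CPM. How the counts were divided between genes this alike was not tested.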
